A study of Drosophila melanogaster with 11 samples.

Results

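The glutathione S-transferase genes of Drosophila melanogaster were followed in the antenna of wild-type and mir-284 knockout (KO) flies at 2 ages. The genes were every row of the deposited count table whose symbol starts with Gst, a class letter (D, E, O, S, T or Z) and a number. This rule found 35 of the 16727 genes in the table: 11 of the Delta class (D), 14 of the Epsilon class (E), 3 of the Omega class (O), 1 of the Sigma class (S), 4 of the Theta class (T) and 2 of the Zeta class (Z). The rule used no measured value, and 35 of 35 passed the filter on low counts.

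Glutathione S-transferases join the tripeptide glutathione to reactive or foreign molecules, which makes them easier to export, and some act instead as peroxidases or isomerases or as carriers of small molecules. The Delta and Epsilon classes are specific to insects and their close relatives, have expanded by local gene duplication and are known for roles in insecticide resistance. In insect antennae these enzymes are regarded as candidates for clearing odorants and for protecting the olfactory neurons from reactive compounds.

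The third antennal segment, which carries most of the fly's smell sensilla, gave the RNA, and polyadenylated transcripts were sequenced. WT flies were of the w1118 strain, and KO flies carried a knockout of the microRNA gene mir-284 in that strain after 7 rounds of outcrossing to it, per the labels, so that all groups share the w1118 mutation. WT and KO flies were taken at 3 d and at 25 d after eclosion. There were 3 libraries each for WT 3 d, WT 25 d and KO 3 d and 2 libraries for KO 25 d. The labels give neither the sex of the flies nor how many flies made up a library, and the design text calls the replicates biological.

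Library totals ran from 24619699 to 55485825 counts, and the 35 genes took 0.367% to 0.832% of them. On the first principal component, KO 25 d replicate 1 was far from the rest (163 against -47.6 to 13.3). On the second, so were the libraries numbered 3 of WT 3 d and KO 3 d (80.1 and 69.4 against -37.2 to 10.7). The counts and values below that move most with these libraries are given with and without them. Fits without KO 25 d replicate 1, or without all 3 libraries, leave KO 25 d replicate 2 alone in its group. That lone library is then assumed to vary like the other groups. The targeted gene, mir-284, had 0 counts in all 11 libraries, WT included, which checks no label because the libraries were selected for polyadenylated RNA. The odorant receptor and co-receptor markers of olfactory neurons (7 of 7 detected in every group) summed to 921 to 4390 CPM (counts scaled to the size of the library), and the lowest sum was in WT 3 d replicate 3. Markers of other cells were present in every group, with sums over all libraries of 509 to 8046 CPM for photoreceptors, 230.3 to 664 CPM for hemocytes and 138 to 443 CPM for glia. The photoreceptor markers had averaged KO log2 values below 0 in 5 of 5 cases (median -1.12, and -2.26 at 25 d). Of the 5 hemocyte markers 3 were below 0 (median -0.69), while NimC1 was higher in KO (averaged log2 3.67, SE 0.28, adjusted p = 0.000105). The 5 fat body markers summed to 16.1 to 5150 CPM in WT 3 d, 2067 to 8511 CPM in KO 3 d, 128 to 1431 CPM in WT 25 d and 814.5 to 1438 CPM in KO 25 d. In the average their median was 0.91, and 2 of the 5 were below 0. Their part in the results for the GST genes was not tested. In such bulk samples, fewer cells of a type and less RNA per cell cannot be told apart.

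Levels of different genes were compared as RPKM, the TMM-normalized CPM per kilobase of exon. In WT at 3 d the antenna held GST transcripts from 0.179 RPKM for GstE10 to 1804 RPKM for GstE4, with 8 genes under 10, 17 between 10 and 100 and 10 over 100 RPKM. GstE4 and GstD1 alone made up 32.8% and 17.2% of the summed RPKM of the family. Their levels lay above those of 99.8% and 99.5% of all tested genes. GstD1, an enzyme known for detoxifying DDT and a much used reporter of the oxidative stress response, was at 945 RPKM. GstE6, GstE12 and GstE3 followed with 433, 429 and 346 RPKM, so that 5 genes held 71.8% of the sum.

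GstE4 was at 2054, 2051 and 436 CPM in WT 3 d and at 1761, 1668 and 1815 CPM in WT 25 d. KO libraries held 1598, 1480 and 1097 CPM at 3 d and 2350 and 1230 CPM at 25 d. The groups overlapped at both ages, with the lowest value in WT 3 d replicate 3 and the highest in KO 25 d replicate 1. Averaged over the ages, its KO difference was -0.04 on the log2 scale (SE 0.36, adjusted p = 0.951). Without the 3 libraries that stood apart, which left KO 25 d replicate 2 alone in its group, it was -0.46.

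By group mean RPKM, the order of the family differed between the genotypes at its upper end. GstE4 ranked first in WT at both ages. GstD1 ranked first in KO at both ages, with 1864 RPKM at 3 d and 3105 RPKM at 25 d. This order did not hold in every library, at exon lengths of 839 bases for GstE4 and 843 for GstD1. In WT 3 d replicate 3 GstD1 was above GstE4 (628 against 436 CPM). In KO 3 d replicate 1 they were close (1620 against 1598 CPM). GstD2, linked in the fly to the metabolism of isothiocyanates, ranked 11 in WT 3 d, 8 in WT 25 d, 7 in KO 3 d and 3 in KO 25 d. Its RPKM were 94.3, 192, 263 and 749.6 in the same order. In KO 25 d replicate 2 alone GstD1 still ranked first with 1651 RPKM, and GstD2 ranked 4 with 357.5 RPKM, against 4559 and 1142 RPKM in replicate 1. At the lower end GstE10 had 0 counts in KO 3 d replicate 2, which allows up to 0.0812 CPM, and GstD4 had 0 counts in KO 25 d replicate 1, which allows up to 0.0770 CPM. These limits of 3 counts cover counting error only.

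**Figure D1:**
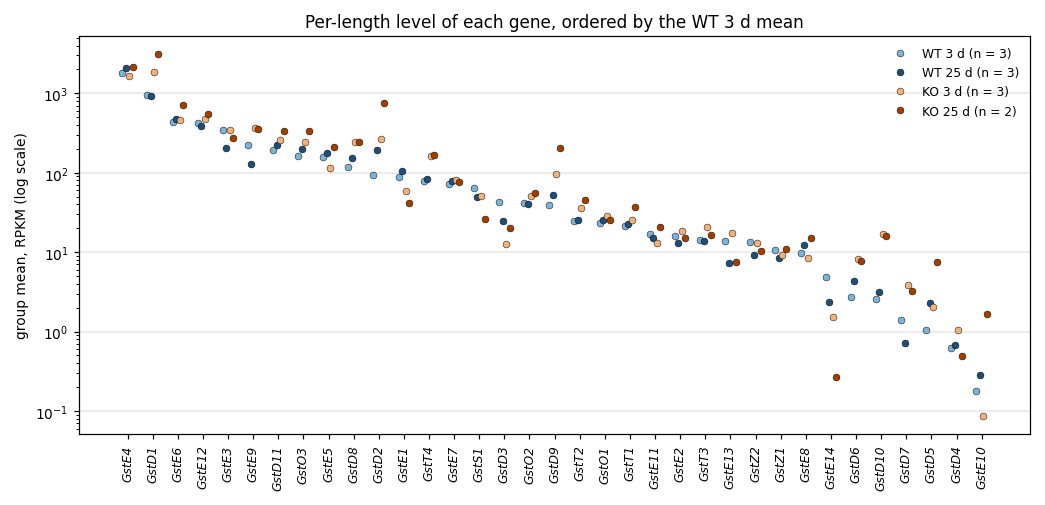
Group mean RPKM (log axis) of the 35 genes, ordered from left to right by the WT 3 d mean, with 1 dot per group (n = 3, or n = 2 for KO 25 d). GstE4 and GstD1 lie at the left end, with WT 3 d means of 1804 and 945 RPKM, and the KO dots of GstD1 and GstD2 lie above their WT dots.

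The comparison of KO with WT asked which of these transcripts differ in flies that lack mir-284. Averaged over the 2 ages, 12 of the 35 genes passed the test (edgeR quasi-likelihood, Benjamini-Hochberg adjusted p under 0.05 over all genes tested), 8 higher and 4 lower in KO. They make up 34.3% of the family, where 5.32% of all tested genes passed (2.91% higher and 2.41% lower). The median log2 fold change of the family was 0.35, against -0.03 over all tested genes, and 29 of 35 values were above 0. Without the 3 libraries that stood apart, the median was 0.18, against -0.02 over all tested genes, and 23 of 35 values were above 0. Of these 12 calls, 8 held when any single library was left out: GstD1, GstD2, GstD9, GstD10, GstE9 and GstT4 higher and GstD3 and GstS1 lower. Leaving out KO 25 d replicate 2, so that replicate 1 alone stood for its group, gave 20 calls, but in that fit 39.2% of all tested genes passed (the lone library is assumed to vary like the other groups). With replicate 1 left out instead, 9 genes passed, 7 higher and 2 lower, against 4.99% of all tested genes.

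By class, the calls were 5 higher and 1 lower of 11 Delta genes, 1 higher and 2 lower of 14 Epsilon genes, 2 higher of 4 Theta genes and 1 lower of 1 Sigma gene. The 3 Omega and 2 Zeta genes gave 0 calls by edgeR in the average. The Delta genes had a median log2 fold change of 1.34, with 10 of 11 above 0, and the Epsilon genes one of 0.12. Without the 3 libraries that stood apart, the Delta median was 0.94, again with 10 of 11 above 0, and the Epsilon median turned to -0.07, with 5 of 14 above 0.

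**Figure D2:**
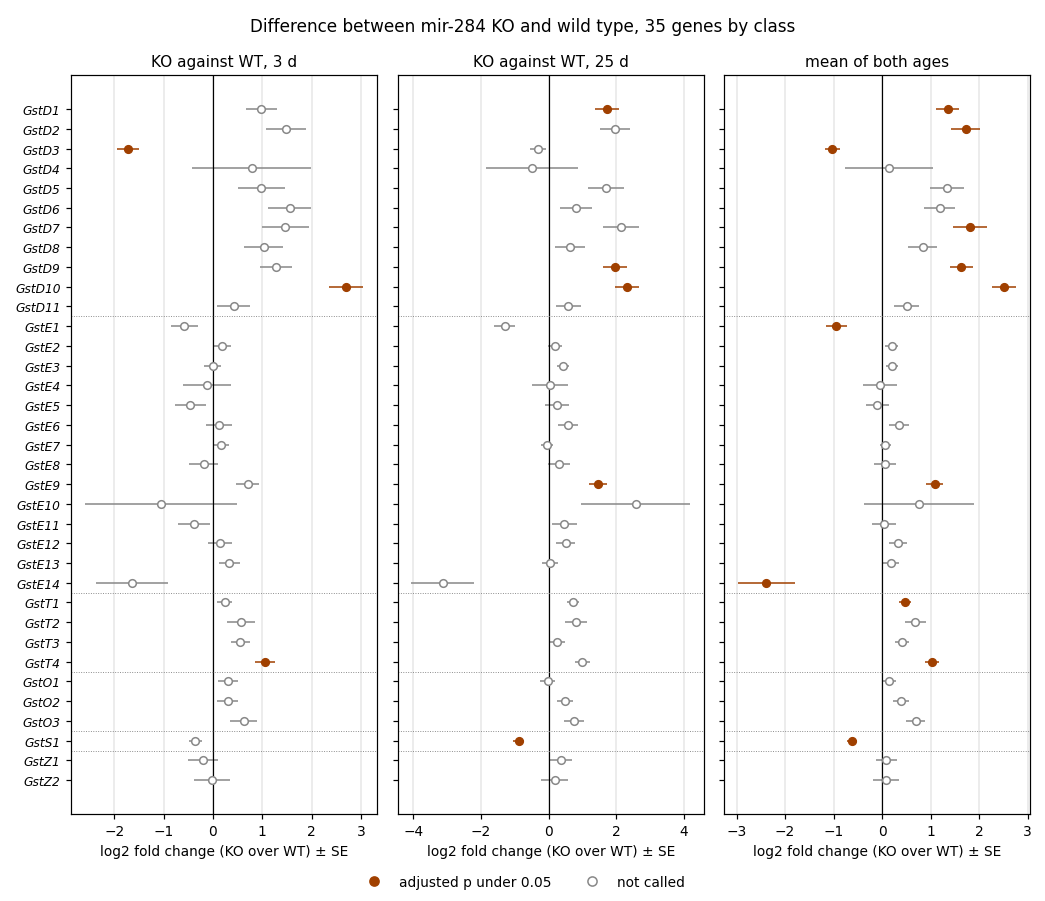
Log2 fold change of KO over WT ± SE for the 35 genes, grouped by class with dotted lines between classes, at 3 d, at 25 d and as the mean of both ages; filled dots have an adjusted p under 0.05. In the mean panel GstD10 lies farthest to the right of the called genes, at 2.52, and GstE14 farthest to the left, at -2.39.

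The 11 Delta genes lie next to each other on chromosome arm 3R (dm6), from 12364776 to 12385624, a span of 20.8 kb that begins with GstD10, GstD9 and GstD1 on the minus strand and goes on with GstD2 to GstD8 and GstD11 on the plus strand. The mir-284 locus lies on the same arm at 12551515 to 12551614, 165.9 kb beyond the end of GstD11. The sequence of this region in the KO flies was not analysed here. Because Delta genes arose by duplication, fragments that match several of them could be assigned to the wrong copy or lost, and each value of a Delta or Epsilon gene carries that uncertainty.

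GstD10 (FBgn0042206, 3R, 12364776 to 12365735, 2 exons) showed the largest increase among the called genes of the family. It was at 2.28, 1.96 and 2.61 CPM in WT 3 d and at 17.83, 15.99 and 10.96 CPM in KO 3 d. At 25 d it was at 2.86, 1.81 and 3.71 CPM in WT and at 17.9 and 9.98 CPM in KO. Every KO library lay above every WT library. Averaged over the ages, the log2 fold change was 2.52 (SE 0.25, adjusted p = 0.000324), a 5.72-fold increase, and it was 2.27 without KO 25 d replicate 1 (adjusted p = 0.000557). The gene had 71 to 107 counts in each WT library and 317 to 696 counts in each KO library. By RPKM its rank in the family was 31 in WT 3 d and 24 in KO 3 d.

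GstD1 (FBgn0001149, 3R, 12367817 to 12369268, 2 exons) and GstD9 (FBgn0038020, 3R, 12366163 to 12367564, 2 exons), its neighbour on the same strand, also rose. GstD1 was at 929, 833 and 628 CPM in WT 3 d and at 791, 761 and 808 CPM in WT 25 d. KO libraries held 1620, 1676 and 1418 CPM at 3 d and 3843 and 1392 CPM at 25 d. All KO values were above all WT values, and KO 25 d replicate 1 was 2.76 times as high as replicate 2. Its averaged log2 fold change was 1.36 (SE 0.24, adjusted p = 0.00845), or 2.56-fold. It was 0.90, or 1.86-fold, without KO 25 d replicate 1 (SE 0.14, adjusted p = 0.00669).

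GstD9 was at 33.3, 30.2 and 28.5 CPM in WT 3 d and at 46.00, 36.88 and 39.96 CPM in WT 25 d. In KO it was at 83.9, 64.4 and 76.7 CPM at 3 d and at 243 and 78.7 CPM at 25 d. Again no KO library was as low as any WT library. The averaged log2 fold change was 1.63 (SE 0.24, adjusted p = 0.00334), and it was 1.11 without KO 25 d replicate 1 (SE 0.11, adjusted p = 0.000465), or 3.10-fold and 2.16-fold.

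GstD2 (FBgn0010038, 3R, 12371971 to 12372704, 1 exon) was at 87.9, 80.9 and 38.8 CPM in WT 3 d and at 159, 119 and 144 CPM in WT 25 d. In KO it was at 221, 209.6 and 149 CPM at 3 d and at 838 and 262 CPM at 25 d. The genotypes did not overlap within either age, although KO 3 d replicate 3 was below WT 25 d replicate 1. For GstD2 the averaged log2 fold change was 1.72 (SE 0.30, adjusted p = 0.00877), or 3.30-fold. It was 1.18 without KO 25 d replicate 1 (SE 0.24, adjusted p = 0.0258).

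GstD7 (FBgn0010043, 3R, 12378500 to 12379255, 1 exon) was the least abundant of the called Delta genes. It was at 1.49, 0.851 and 0.815 CPM in WT 3 d and at 0.694, 0.534 and 0.404 CPM in WT 25 d. In KO it was at 2.92, 3.38 and 2.45 CPM at 3 d and at 2.93 and 1.95 CPM at 25 d, above every WT library. The averaged log2 fold change of 1.81 (SE 0.36, adjusted p = 0.0152) rested on 11 to 66 counts in each WT library. The call ended without WT 3 d replicate 2 (adjusted p = 0.0592), WT 25 d replicate 2 (adjusted p = 0.0530), KO 3 d replicate 1 (adjusted p = 0.0515) or KO 3 d replicate 2 (adjusted p = 0.0526).

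GstD3 (FBgn0010039, 3R, 12373068 to 12373813, 1 exon) lies just beyond GstD2 on the same strand and went the other way. Its protein has been reported to lack the N-terminal stretch that other Delta enzymes use to bind glutathione. It was at 30.5, 25.7 and 38.4 CPM in WT 3 d and at 10.2, 10.2 and 8.23 CPM in KO 3 d. At 25 d it was at 20.8, 17.8 and 17.4 CPM in WT and at 18.1 and 11.7 CPM in KO. The 3 d groups were far apart and the 25 d groups overlapped. In the average GstD3 had a log2 value of -1.03 (SE 0.16, adjusted p = 0.00493), a 2.04-fold decrease.

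The ratio of GstD3 to GstD2 within each library, which does not depend on library scaling, was 0.347, 0.318 and 0.988 in WT 3 d and 0.131, 0.149 and 0.121 in WT 25 d. In KO it was 0.0462, 0.0487 and 0.0550 at 3 d and 0.0216 and 0.0446 at 25 d. Every KO ratio was below every WT ratio, and a ratio shows only that the genes changed unequally.

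The other 5 Delta genes did not pass the averaged test. GstD5 and GstD6 had log2 fold changes of 1.34 (adjusted p = 0.0589) and 1.19 (adjusted p = 0.0611) on levels of 0.733 to 7.11 CPM and 0.923 to 6.62 CPM over the libraries. GstD8 and GstD11, which are more abundant with WT 3 d means of 118 and 195 RPKM, had values of 0.84 (adjusted p = 0.126) and 0.50 (adjusted p = 0.249). GstD4 stayed at or under 1.00 CPM in every library, with a value of 0.14 (SE 0.90, adjusted p = 0.934). DESeq2 also called GstD5, GstD6 and GstD8 higher (adjusted p = 0.00301, 0.00512 and 0.0444). For these genes the KO libraries lay above the WT libraries of the same age.

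Summed over the class, Delta transcripts were at 1498, 1371 and 879.9 CPM in WT 3 d and at 1421, 1295 and 1407 CPM in WT 25 d. In KO they were at 2498, 2519 and 2078 CPM at 3 d and at 5694 and 2198 CPM at 25 d. The lowest KO sum was above the highest WT sum, and GstD1 was the most abundant Delta transcript in every library.

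**Figure D3:**
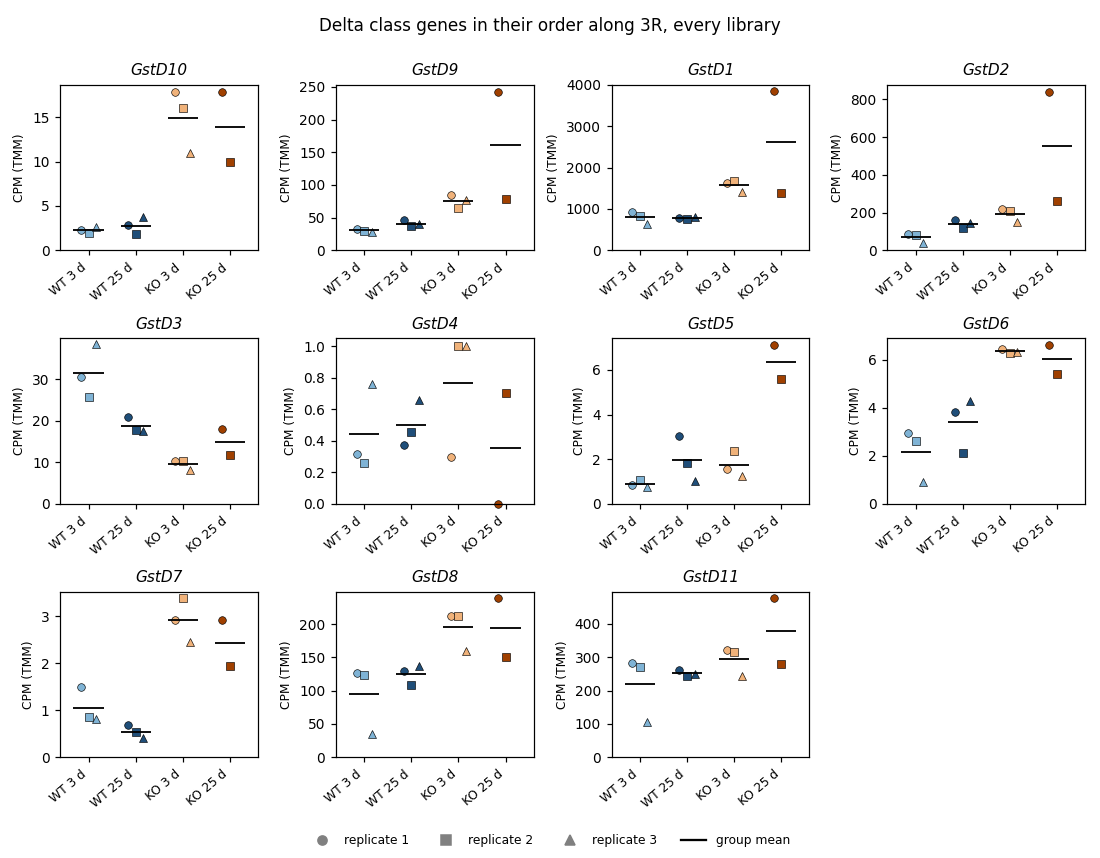
CPM of the 11 Delta genes in every library, in their order along 3R, with marker shapes for the replicate numbers and black lines for the group means. KO markers lie above the WT markers of the same age, at both ages, for GstD10, GstD9, GstD1, GstD2, GstD5, GstD6, GstD7 and GstD8. GstD3 is lower in KO at 3 d (8.23 to 10.2 against 25.7 to 38.4 CPM), and the KO 25 d circle is replicate 1.

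Genes around the Delta genes were examined in the same way. Of the 10 genes on each side and CG10035, which lies among the Delta genes, 12 were tested and edgeR called 0 of them at 3 d, at 25 d or in the average. At an unadjusted p under 0.05 there were 0, 1 and 1, and DESeq2 called 0, 1 and 1. Their averaged log2 fold changes ran from -0.37 to 0.70, with the largest for CG10035 (adjusted p = 0.0884).

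The antennal support cells secrete odorant binding proteins. Of their 5 markers 5 had a log2 fold change above 0 in the average (median 1.00), edgeR called 0 of them, 5 had an unadjusted p under 0.05 and DESeq2 called 4. None was at 0 in any group. Their sum was at 28100 to 36670 CPM in WT 3 d and 46030 to 61500 CPM in KO 3 d, and at 29560 to 36930 CPM in WT 25 d and 31070 to 203000 CPM in KO 25 d, so that the genotypes overlapped at 25 d. Their part in the GST result was not tested. The male-specific RNAs roX1 and roX2 summed to 1992 to 3817 CPM over the WT libraries, to 755 to 1244 CPM in KO 3 d and to 1278 to 2744 CPM in KO 25 d. For roX2 alone the WT range (18.3 to 37.6 CPM) and the KO range (8.50 to 17.4 CPM) did not overlap, so its level and the genotype cannot be told apart. A fit that also held the roX2 level, added after seeing these data, gave 0 calls by edgeR among the 35 genes at 3 d, at 25 d and in the average, and 3, 3 and 5 genes had an unadjusted p under 0.05. In that fit 0.0843%, 0.118% and 0.101% of all tested genes passed at the adjusted p. The shares of all tested genes at the unadjusted p are not given here, so the counts of 3, 3 and 5 do not set the family apart.

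Outside the Delta genes, GstE9 and GstT4 rose and GstS1 fell in calls that held without any single library. GstE9 (FBgn0063491, 2R, 18409048 to 18409835, 1 exon) closes the row of 10 Epsilon genes from GstE10 to GstE9 that spans 13.2 kb of 2R. It was at 168, 150.5 and 209 CPM in WT 3 d and at 268, 256 and 335 CPM in KO 3 d. At 25 d it was at 99.6, 112.5 and 94.0 CPM in WT and at 372 and 190.0 CPM in KO. The genotypes did not overlap at either age. In the average GstE9 had a log2 value of 1.08 (SE 0.18, adjusted p = 0.00639), and 0.79 without KO 25 d replicate 1 (adjusted p = 0.00669). Its exon overlaps that of imd, a gene of the immune response, by 40 bases on the other strand, and because the counting ignored strand the assignment of fragments there is uncertain.

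GstT4 (FBgn0030484, X, 13404749 to 13409323, 4 exons), the most abundant Theta gene by RPKM, was at 91.5, 81.3 and 116 CPM in WT 3 d and at 223, 163 and 216 CPM in KO 3 d. At 25 d it was at 115.2, 109.4 and 83.19 CPM in WT and at 234 and 175 CPM in KO. Every KO library exceeded every WT library. In the average GstT4 had a log2 value of 1.03 (SE 0.15, adjusted p = 0.00330), a 2.04-fold increase.

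GstS1 (FBgn0010226, 2R, 17093246 to 17098306, 7 exons) encodes the Sigma enzyme, which is abundant in flight muscle and conjugates products of lipid peroxidation such as 4-hydroxynonenal. It was at 160, 154 and 124 CPM in WT 3 d and at 114, 113 and 116 CPM in KO 3 d. At 25 d it was at 117, 114 and 101 CPM in WT and at 56.4 and 63.4 CPM in KO. The KO libraries were below the WT libraries at each age, and the lowest values of all were the 2 of KO 25 d. For GstS1 the averaged log2 fold change was -0.62 (SE 0.10, adjusted p = 0.00619), and -0.59 without KO 25 d replicate 1 (adjusted p = 0.0130). Of the 6 muscle markers 6 were lower in the same average (median -1.22) and 3 of them were called lower. Their sum was at 634 to 1246 CPM in WT 3 d, 259 to 787 CPM in KO 3 d, 187 to 282 CPM in WT 25 d and 131 to 225 CPM in KO 25 d, with none at 0 in any group. Their part in the GstS1 result was not tested.

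GstE1 (FBgn0034335, 2R, 18398393 to 18399223, 1 exon) and GstE14 (FBgn0033817, 2R, 13239729 to 13241013, 4 exons) were called lower in the average, but neither call held without each library. GstE1 was at 57.1, 61.0 and 102 CPM in WT 3 d and at 55.1, 101 and 103 CPM in WT 25 d. In KO it was at 43.3, 46.5 and 57.1 CPM at 3 d and at 36.2 and 33.8 CPM at 25 d. The highest KO 3 d library and the lowest WT 3 d library were both at 57.1 CPM, and at 25 d the genotypes were apart. For GstE1 the averaged log2 fold change was -0.94 (SE 0.21, adjusted p = 0.0285). The call ended without WT 25 d replicate 2 or 3 (adjusted p = 0.0814 and 0.0811), without KO 3 d replicate 1 or 2 (adjusted p = 0.0721 and 0.0738) and without KO 25 d replicate 1 (adjusted p = 0.0763). Its exon shares 20 bases with that of GstE10 on the other strand.

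GstE14, known as Noppera-bo, acts in the synthesis of the steroid hormone ecdysone. It was at 2.69, 3.20 and 8.80 CPM in WT 3 d and at 1.22, 1.73 and 1.73 CPM in KO 3 d. At 25 d it was at 0.454, 3.97 and 2.72 CPM in WT and at 0.231 and 0.310 CPM in KO, which are 9 and 11 counts. The genotypes did not overlap within an age, but WT 25 d replicate 1 was below every KO 3 d library. The averaged log2 fold change was -2.39 (SE 0.59, adjusted p = 0.0439). It was called without WT 25 d replicate 1 and without KO 25 d replicate 2, and not without any other single library (adjusted p of 0.0645 to 0.127).

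GstT1 (FBgn0050000, 2R, 9605988 to 9607184, 4 exons) had the smallest called increase. It was at 20.5, 19.6 and 23.8 CPM in WT 3 d, 22.4, 21.8 and 22.7 CPM in WT 25 d, 25.9, 25.6 and 23.8 CPM in KO 3 d, and 43.5 and 29.7 CPM in KO 25 d. The highest WT library and the lowest KO library were both at 23.8 CPM. The averaged log2 fold change was 0.48 (SE 0.12, adjusted p = 0.0453), or 1.39-fold. It was called without WT 3 d replicate 3 and without KO 25 d replicate 2, and not without any other single library (adjusted p of 0.0676 to 0.123). Its call also ended in edgeR with the scaling factors of DESeq2 (adjusted p = 0.0596), with no filter (0.0633) and with a stricter filter (0.0504). The DESeq2 test itself called it (0.46, adjusted p = 0.0116).

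**Figure D4:**
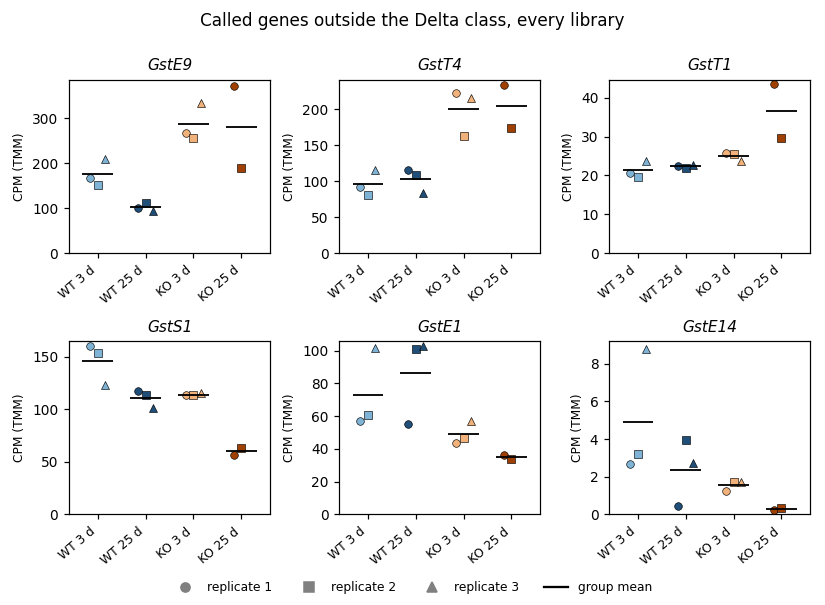
CPM in every library of the 6 called genes outside the Delta class, with marker shapes for the replicate numbers and black lines for the group means. GstT4 is higher in KO at both ages (163 to 234 against 81.3 to 116 CPM), and GstS1 is lowest in the 2 KO 25 d libraries (56.4 and 63.4 CPM).

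At 3 d alone, 3 of the 35 genes passed, GstD10 and GstT4 higher and GstD3 lower, against 1.39% of all tested genes (0.649% higher and 0.742% lower). The log2 fold change was 2.71 for GstD10 (SE 0.35, adjusted p = 0.00347) and -1.72 for GstD3 (SE 0.22, adjusted p = 0.00326), and both calls held without any single library. It was 1.06 for GstT4 (SE 0.20, adjusted p = 0.0318), a call lost on removal of replicate 1 or 2 of WT 3 d (adjusted p = 0.158 and 0.167), replicate 1 or 2 of WT 25 d (0.0607 and 0.0697) or replicate 1 or 3 of KO 3 d (0.148 and 0.0887). KO and WT libraries did not overlap for 16 genes that were higher and 5 that were lower in KO, where 13.9% and 11.8% of all tested genes (25.7% in either direction) were so. The 16 include 8 of the 11 Delta genes, 4 of 4 Theta genes, 3 of 3 Omega genes and GstE9. DESeq2 called 8 genes at this age, adding GstD1, GstD2, GstD6, GstD7 and GstD9, against 4.75% of all tested genes.

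All 4 groups share 1 estimate of the spread, so the 25 d libraries also bear on the 3 d calls. With KO 25 d replicate 1 left out, 8 genes passed at 3 d: GstD1, GstD2, GstD9, GstE9 and GstT2 were added, with log2 fold changes of 0.97, 1.47, 1.28, 0.70 and 0.56 (adjusted p = 0.0135, 0.0283, 0.000800, 0.0330 and 0.0375). Of all tested genes 4.7% passed in that fit. Leaving out replicate 2 of that group also gave 8, against 4.68%. Without the 3 libraries that stood apart, 15 genes passed at this age, 11 higher and 4 lower, against 12.5% of all tested genes.

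At 25 d alone, 5 of the 35 genes passed, against 1.74% of all tested genes (0.986% higher and 0.75% lower). GstD10 rose by 2.32 (SE 0.36, adjusted p = 0.0110), GstD9 by 1.97 (SE 0.35, adjusted p = 0.0192), GstD1 by 1.73 (SE 0.35, adjusted p = 0.0363) and GstE9 by 1.46 (SE 0.26, adjusted p = 0.0195) on the log2 scale. GstS1 had a log2 value of -0.89 (SE 0.15, adjusted p = 0.0169). GstT4 (0.99, adjusted p = 0.0544), GstD2 (1.97, adjusted p = 0.0576), GstT1 (0.71, adjusted p = 0.0736), GstD7 (2.15, adjusted p = 0.0739) and GstE1 (-1.30, adjusted p = 0.0748) did not pass. The libraries did not overlap for 14 genes that were higher and 3 that were lower in KO, where 14.6% and 18.4% of all tested genes (32.9% in either direction) were so. The 14 include 9 of the 11 Delta genes. DESeq2 called 12 genes, 9 higher and 3 lower, against 9.08% of all tested genes.

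None of the 5 calls at 25 d held without each library. The values without KO 25 d replicate 1 became 1.84 for GstD10 (adjusted p = 0.0554), 0.82 for GstD1 (adjusted p = 0.204), 0.89 for GstE9 (adjusted p = 0.0872) and -0.81 for GstS1 (adjusted p = 0.0749), and GstD9 alone was called (0.94, adjusted p = 0.0451). The calls of GstD9 (adjusted p of 0.0710 to 0.116), GstE9 (0.0813 to 0.117) and GstS1 (0.0510 to 0.0829) ended without any single WT 25 d library, and that of GstD10 without WT 25 d replicate 1 (0.0533). GstD1 was called without WT 3 d replicate 3 and without KO 25 d replicate 2, and not without any other single library (0.0519 to 0.204). Leaving out WT 25 d replicate 1, 2 or 3 gave 1 call each, of GstE1 (adjusted p = 0.0493), GstD10 (0.0486) and GstD10 (0.0324). Of all tested genes 0.764%, 0.644% and 0.579% passed there. Leaving out WT 3 d replicate 3 gave 8 and leaving out KO 25 d replicate 2 gave 22. In the last 2 fits 2.44% and 40.3% of all tested genes passed. In a fit of the 5 libraries of 25 d alone edgeR gave 0 calls, against 0.182% of all tested genes. In it 13 genes had an unadjusted p under 0.05. The share of all tested genes at that p is not given here, so the count of 13 does not set the family apart.

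The remaining 23 genes passed no comparison in the main edgeR fit, with its filter, scaling and all libraries. Among the Epsilon genes, GstE6 and GstE12 had averaged log2 fold changes of 0.35 (adjusted p = 0.305) and 0.32 (adjusted p = 0.306), and GstE5 one of -0.10 (adjusted p = 0.808). The first pair turned to -0.07 (adjusted p = 0.555 and 0.552) when the 3 libraries that stood apart were left out. In that fit, which left KO 25 d replicate 2 alone in its group, GstE5 was at -0.68. GstE2, GstE3, GstE7, GstE8, GstE11 and GstE13 had averaged values between 0.04 and 0.21, of which those of GstE8 and GstE11 turned sign without the 3 libraries. Of the Theta genes GstT2 and GstT3 had values of 0.69 (adjusted p = 0.0934) and 0.41 (adjusted p = 0.128). DESeq2 called GstT2 (0.67, adjusted p = 0.0371). Without the 3 libraries that stood apart, GstT2 was at 0.17 and GstT3 at 0.39. GstE10 was under 1 CPM in every library except KO 25 d replicate 1, which had 146 counts of it against 2 in replicate 2.

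GstO3 was the most abundant Omega gene by RPKM, a class with thioltransferase and dehydroascorbate reductase activities. It was at 161.9, 148.3 and 114.6 CPM in WT 3 d and at 221, 183 and 249 CPM in KO 3 d, and at 181, 176 and 164 CPM in WT 25 d and 412 and 176 CPM in KO 25 d. The genotypes were apart at 3 d and overlapped at 25 d. Its averaged value was 0.69 (SE 0.20, adjusted p = 0.0806), and 0.20 without the 3 libraries that stood apart (adjusted p = 0.119). GstO2 and GstO1 had values of 0.39 (adjusted p = 0.176) and 0.14 (adjusted p = 0.581). Without the 3 libraries, which left KO 25 d replicate 2 alone in its group, GstO1 was at 0.33. By edgeR the 3 Omega genes gave 0 calls in the average, and DESeq2 called GstO3 (adjusted p = 0.0183).

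The Zeta enzymes act as maleylacetoacetate isomerases in the breakdown of tyrosine. GstZ2, the higher of the 2 by RPKM in WT 3 d, was at 21.4, 22.2 and 48.9 CPM in WT 3 d, 19.5, 25.7 and 19.0 CPM in WT 25 d, 28.7, 19.3 and 43.6 CPM in KO 3 d, and 27.8 and 20.7 CPM in KO 25 d. The groups overlapped, and the highest values were in the libraries numbered 3 of both 3 d groups. The averaged values were 0.08 for GstZ2 (adjusted p = 0.868) and 0.09 for GstZ1 (adjusted p = 0.826).

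For age, the question was which of these transcripts change between 3 d and 25 d. In WT edgeR called 0 of the 35 genes, against 0.152% of all tested genes (0.059% higher and 0.0927% lower), with 7 at an unadjusted p under 0.05 and 2 calls by DESeq2 (GstE13 and GstE3), which called 2.49% of all tested genes. Of all tested genes 958 had an unadjusted p under 0.05. GstE13 was at 15.01, 13.89 and 15.45 CPM in WT 3 d and at 7.13, 7.63 and 8.38 CPM in WT 25 d (log2 -0.94, SE 0.21, adjusted p = 0.132). GstE3 was at 290.1, 247 and 247 CPM in WT 3 d and at 137, 162 and 168 CPM in WT 25 d (-0.75, SE 0.17, adjusted p = 0.132). Neither gene overlapped between the ages. The WT libraries of the ages were apart for 3 higher and 8 lower genes, where 13.1% and 13% of all tested genes (26% in either direction) were so. With KO 25 d replicate 1 left out, GstE13, GstE3 and GstE9 were called lower with age in WT (adjusted p = 0.0291, 0.0379 and 0.0428), and without KO 25 d replicate 2 there were also 3 calls. In these fits 1.44% and 1.46% of all tested genes passed.

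In KO edgeR called 0 of the 35 genes for age, against 0.0421% of all tested genes (0.0337% higher and 0.00843% lower). An unadjusted p under 0.05 was found for 11 of the 35 and for 1404 of the 11867 tested genes. DESeq2 called 4, GstE13 and GstS1 lower and GstD2 and GstD5 higher, against 2.36% of all tested genes. GstE13 was at 17.3, 15.4 and 23.1 CPM in KO 3 d and at 6.31 and 9.47 CPM in KO 25 d (log2 -1.24, SE 0.24, adjusted p = 0.152), so that its 25 d libraries lay below its 3 d libraries in both genotypes. GstS1 had a value of -0.93 in KO (SE 0.15, adjusted p = 0.108) and -0.40 in WT (SE 0.13, adjusted p = 0.360). In the fit without the 3 libraries that stood apart, which left KO 25 d replicate 2 alone in its group, these values were -0.83 and -0.50. GstD2 had values of 1.51 in KO (adjusted p = 0.313) and 1.03 in WT (adjusted p = 0.504), and in that same fit 0.30 and 0.74. Of the 6 muscle markers, 6 had age values below 0 in WT (median -1.82, 1 called lower) and 6 in KO (median -1.28, 0 called). Their part in the age values of GstS1 was not tested. The KO libraries of the ages were apart for 5 higher and 5 lower genes, where 8.03% and 12% of all tested genes (20.1% in either direction) were so. There were 19 calls when KO 25 d replicate 2 was left out, where 32.3% of all tested genes passed, and 0 when replicate 1 was.

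The difference between the KO effect at 25 d and that at 3 d passed for 0 of the 35 genes by edgeR, against 0.0253% of all tested genes (0.00843% higher and 0.0169% lower), with 2 at an unadjusted p under 0.05 and 1 call by DESeq2. Of all 11867 tested genes 726 had an unadjusted p under 0.05, and DESeq2 called 0.362%. The gene called by DESeq2 was GstD3, with a log2 difference of 1.398 (adjusted p = 0.673 by edgeR and 0.0307 by DESeq2). GstD3 was lower with age in WT (log2 -0.76, adjusted p = 0.241) and higher with age in KO (0.64, adjusted p = 0.381), and neither value passed. Without the 3 libraries that stood apart, these age values were -0.59 in WT and 0.21 in KO. The GstD3 difference was 1.05 without KO 25 d replicate 1 (adjusted p = 0.601) and 0.80 without the 3 libraries that stood apart (adjusted p = 0.131). In these fits KO 25 d replicate 2 stood alone for its group, and no GST gene was called. With KO 25 d replicate 2 left out, 13 genes passed, GstD3 among them (1.68, adjusted p = 0.00352), but so did 23.6% of all tested genes.

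The library that stood apart at 25 d also stood apart in these genes. In KO 25 d replicate 1 the 35 genes summed to 11850 CPM, against 5424 CPM in replicate 2 and 3481 to 6703 CPM in the other 9 libraries. Of the 35 genes 22 had their highest value there, or 62.9%, as had 27.2% of all tested genes. The ratio of replicate 1 to replicate 2 was above 1 for 28 genes and above 1.5 for 20, and it was 3.19 for GstD2, 3.09 for GstD9, 2.96 for GstE11, 2.88 for GstE5 and 2.76 for GstD1. It was 0.546 for GstO1, the lowest of the genes detected in both. The shares of all tested genes with such ratios are not given here, so the counts of 28 and 20 do not set the family apart.

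WT 3 d replicate 3 held the lowest value of 11 of the 35 genes, where 12.7% of all tested genes were lowest there. Against the mean of the other WT 3 d libraries, GstE4 was at a ratio of 0.213, GstD8 at 0.281, GstD6 at 0.334, GstD11 at 0.381 and GstD2 at 0.460. In KO 3 d replicate 3 the same ratio was 0.713 for GstE4, 0.754 for GstD8 and 0.760 for GstD11. GstZ2 was high in both, at 2.24 and 1.82.

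**Figure D5:**
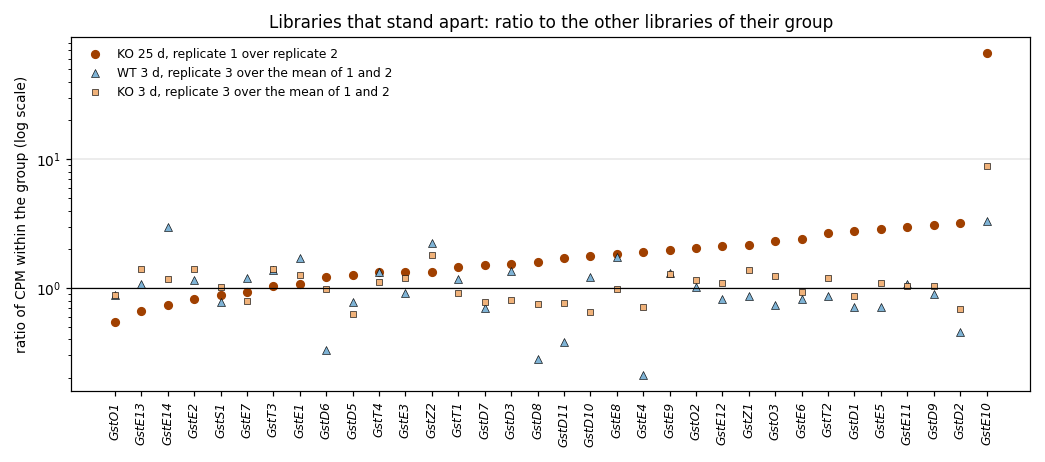
Ratio of CPM (log axis) within a group for 34 genes, ordered by the ratio of KO 25 d replicate 1 to replicate 2, with triangles for WT 3 d replicate 3 and squares for KO 3 d replicate 3, each over the mean of replicates 1 and 2; GstD4, with 0 counts in KO 25 d replicate 1, is left out. Most circles lie above 1, and the lowest triangle is that of GstE4 at 0.213.

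Genes of the glutathione pathway outside the family were read in the same fit. The glutathione synthesis and recycling list (Gclc, Gclm, Trxr-1, Ggt-1, PHGPx and se; 6 of 9 tested) gave 0 calls by edgeR in the averaged KO comparison, with 2 at an unadjusted p under 0.05 and 2 by DESeq2, and its median log2 fold change was 0.08. Of 7 genes outside the symbol rule with a glutathione transferase domain or activity, se again among them, 1 was called higher and 1 lower. Mgstl, a microsomal glutathione transferase, was at 203, 168 and 194 CPM in WT 3 d and 334, 333 and 476 CPM in KO 3 d, and at 148, 176 and 154 CPM in WT 25 d and 418 and 257 CPM in KO 25 d. Every KO library lay above every WT library, and the averaged log2 fold change was 1.05 (SE 0.16, adjusted p = 0.00386), a call that held without any single library. gfzf, which joins a glutathione transferase domain to zinc fingers, had a value of -0.45 (SE 0.10, adjusted p = 0.0266), a call that ended without any single library of WT 3 d except replicate 3, of WT 25 d or of KO 3 d (adjusted p of 0.0528 to 0.0795).

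The transcription factor CncC, the fly counterpart of Nrf2, and its inhibitor Keap1 are known regulators of GstD1. The cnc transcript was at 562, 560.0 and 646 CPM in WT 3 d and 558, 565 and 536 CPM in KO 3 d, and at 604, 651 and 582 CPM in WT 25 d and 1109 and 580.2 CPM in KO 25 d. The groups overlapped at both ages, and the averaged log2 fold change was 0.19 (SE 0.16, adjusted p = 0.496). Keap1 had a value of -0.02 (SE 0.14, adjusted p = 0.957), with 44.4 to 76.0 CPM over all libraries.

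Of the 10 tested genes in the list of these regulators and their reported targets, 1 was higher and 2 were lower in the average. The cytochrome P450 gene Cyp6a8 rose by 1.07 (SE 0.22, adjusted p = 0.0198), a call lost when replicate 1 or 2 of WT 25 d or replicate 1 of KO 3 d was left out (adjusted p of 0.0622 to 0.0683). The P450 genes Cyp6a2 and Cyp12d1-p had values of -2.25 (SE 0.18, adjusted p = 0.000105) and -1.36 (SE 0.23, adjusted p = 0.00766), and both calls held without any single library. Called members of this list thus went in both directions. A separate list of 3 genes for the export of glutathione conjugates, MRP and CG7806 among them, gave 0 calls by edgeR in the average, with 1 at an unadjusted p under 0.05 and 1 by DESeq2.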

How the data were processed

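The deposited table gives raw counts, 1 column per library. Per the file headers, the authors ran featureCounts (1.4.5-p1) on dm6 gene models, counted fragments over the exons of each gene and ignored strand. The same header gives no option for fragments that map to several places, and the table's summed exon length per gene, another deposited column, is in bases. Per the submitters' processing notes, STAR 2.4.2a and FastQC were used. Strand being ignored, 7 of the 35 genes share exon bases with a gene on the other strand (GstE1, GstE9, GstE10, GstE12, GstE13, GstO2 and GstT2). Columns were assigned to samples from the genotype, age and replicate number in their names (11 of 12). The remaining 1, numbered 3 of KO 25 d, matched no label and was not used here, so the values of that group rest on the match by number.

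Tests ran in R 4.3.3 with edgeR 4.0.16 and limma 3.58.1 on all genes: filterByExpr by group (11867 genes left), TMM scaling, 1 model of 4 group means over 11 libraries, and the robust quasi-likelihood test with Benjamini-Hochberg adjustment over all genes tested, with a gene called at an adjusted p under 0.05. The common biological coefficient of variation was 0.431. Every adjusted p is from this test unless DESeq2 (1.42.0) is named. A positive value means higher in KO or at 25 d. The averaged KO comparison is the mean of the differences at 3 d and 25 d. The comparisons share control libraries. The tests were checked on simulated data that held no library standing apart from its group, so that check does not cover the libraries that stood apart here.

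Values in every library are given for genes called in any comparison and for the most abundant gene per length of each class, and other genes by range and count. GstE3 and GstE13 were added after their values were seen. The genes, pathway lists and markers were chosen with earlier results of these data known. Alternatives were RLE scaling, DESeq2, no filter, a stricter filter (at least 10 counts per library and a mean of 5 CPM in some group), a block for the replicate number, separate fits of each pair of groups, and omission of each library in turn. Leaving out both 3 d libraries numbered 3 or the 3 libraries that stood apart, and the roX2 level as a covariate, were added after the data were seen. No genome, promoter or protein sequence was used here. FlyBase IDs were found for 35 of 35 symbols, and 34 of 35 genes, all but GstS1, have the same coordinates in a newer Ensembl annotation.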

Additional observations from a re-analysis of the deposited data

Results flagged for a closer look

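The age change of GstD3 had opposite signs in the genotypes, with libraries that did not overlap between the ages in either. GstD3 was lower at 25 d in WT (log2 -0.76, and -0.59 without the 3 libraries that stood apart). It was higher at 25 d in KO (0.64, and 0.21 without them). With all libraries, the difference between these changes was 1.398. By edgeR this difference had an unadjusted p of 0.00107 and an adjusted p of 0.673, and by DESeq2 it was 1.44 with an adjusted p of 0.0307. By edgeR it was 1.68 when KO 25 d replicate 2 was left out (adjusted p = 0.00352), 1.05 when replicate 1 was left out (adjusted p = 0.601) and 0.80 without the 3 libraries that stood apart (adjusted p = 0.131).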

How the results depend on the processing

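Numbers of genes called are given in the order of age change in WT, age change in KO, KO effect at 3 d, at 25 d and averaged, and the difference of the KO effects, and were 0, 0, 3, 5, 12 and 0 of 35. DESeq2 gave 2, 4, 8, 12, 17 and 1, and called 2.49%, 2.36%, 4.75%, 9.08%, 13.1% and 0.362% of all tested genes. Fits of only the 2 groups compared gave 2, 0, 4 and 0 for the first 4 (1.12%, 0%, 2.27% and 0.182% of all tested genes). Without the 3 libraries that stood apart, chosen after the data were seen, they were 6, 1, 15, 9, 17 and 0 (9.13%, 1.74%, 12.5%, 7.38%, 16.4% and 0.723% of all tested genes). With roX2 as a covariate, also added, they were 0 for KO at 3 d, at 25 d and averaged (0.0843%, 0.118% and 0.101%). Leaving out 1 library gave 0 to 3, 0 to 19, 2 to 8, 1 to 22, 8 to 20 and 0 to 13. Of all tested genes these runs called 0.017% to 1.46%, 0.00847% to 32.3% and 0.542% to 4.7% for the first 3. For the last 3 they called 0.579% to 40.3%, 3.08% to 39.2% and 0% to 23.6%. The upper ends 19, 22, 20 and 13 came from the fit without KO 25 d replicate 2. That fit left replicate 1 alone in its group, so they are not read as a property of the family. RLE scaling, no filter and the stricter filter each gave 0, 0, 3, 5, 11 and 0. With the stricter filter 32 of the 35 genes were tested. Of all tested genes these fits called 0.0926% to 0.294%, 0.0331% to 0.0705% and 1.12% to 1.82% for the first 3. For the last 3 they called 1.4% to 2.57%, 3.8% to 7.27% and 0.0198% to 0.0587%. The causes of these moves were not tested.

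The replicate block gave 0, 0, 3, 4, 10 and 0 (0.101%, 0.0169%, 0.986%, 1.22%, 4.13% and 0.0169% of all tested genes). Replicate numbers are not stated to pair the libraries. Correlations of deviations ran from -0.118 to 0.465 for same-numbered libraries and from -0.555 to 0.504 for differently numbered ones. The same-numbered 3 d pairs of WT and KO were at 0.408, 0.025 and 0.465. A source shared by 3 d libraries was not tested. Of the 20 calls of single genes 10 held without any single library, and none of the 20 turned direction under any setting. Genes not called did: without the 3 libraries that stood apart, 6 of 35 averaged KO values, 14 at 25 d, 3 at 3 d, 15 for age in KO, 4 for age in WT and 17 differences changed sign, and without KO 25 d replicate 1 it was 7, 13, 0, 14, 0 and 17. Depth limits GstD4, GstD5, GstD6, GstD7, GstD10, GstE10 and GstE14 most. The chi-square of counts per degree of freedom between replicates of a group was 14.45 or more, so no library was counted as a repeat. With 2 libraries in KO 25 d, comparisons with that group are the least certain.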
